A study of Rattus norvegicus with 25 samples.

Results

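Probe set b6983 is a group of 94 oligonucleotides on the HuGChip, a microarray of 4441 probes against bacterial 16S rRNA genes, and it was read here in rat faeces from 4 diets. Its members are all probes whose name begins with b6983, each printed in 3 spots, and the other 4347 probes of the same sample serve as their comparison. The set was selected on its detection calls, because fewer of its probes were detected in the linseed oil groups, so its values between the oils are described and not tested. The sources used here pair no bacterial name with the set, and it is called by its number. Wistar rats ate their diets for 12 weeks. The PO group (n = 6) had a control oil, the A+PO group (n = 6) the control oil with wheat aleurone, the LO group (n = 6) linseed oil, and the A+LO group (n = 7) linseed oil with aleurone. Aleurone is a bran fraction that lies around the starchy endosperm, and linseed oil is a source of the omega-3 alpha-linolenic acid. The age, sex and number of rats behind a sample are not analysed here, and p-values measure only the spread between these samples.

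The 16S rRNA gene is present in every bacterium and mixes stretches that hardly change with stretches that differ between families, genera and species. An array for gut bacteria carries short probes for the variable stretches, and labelled 16S copies amplified from faeces bind those that match. A probe can stand for a whole group only if its letters cover the variants in that group, so a set often holds near-copies that differ by single bases. A short probe also loses signal when its target carries a mismatch, most of all when the mismatch lies away from the ends. A bright probe therefore says that a matching or nearly matching copy was abundant among the amplified genes, and it does not count bacteria.

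All PO and LO samples were labelled with Cy3 and all A+PO and A+LO samples with Cy5, which means that a diet with aleurone cannot be told apart from its dye. One slide carried the 6 control-oil arrays and another the 7 linseed arrays, so the oil cannot be told apart from the slide either. An array carried 1 sample in each dye, except that A+LO 11 is used alone. The labels and the deposited columns number 4 of the A+LO samples differently. An A+LO sample is therefore called the partner of the LO sample with which it shared an array, A+LO 11 excepted. Among the other 4347 probes, 13.0% to 33.6% were detected per sample. A probe is called detected in a sample when over 0.5 of its usable spots were well above background by the flag of the scanner software.

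The 94 members fall into 5 subgroups by the second number of their names, with 47, 11, 19, 9 and 8 probes. All are 25 bases long, and positions are counted here from the first letter of the deposited sequence. The letters of these bacterial probes are not printed here, and differences are given as substitutions. The 47 probes of subgroup 1 share their last 15 bases, and none of the other 4347 probes holds the last 11 of these. No probe of another set came within 8 differences of a subgroup 1 probe at the same alignment, the closest having 9. Across the whole set the closest probe of another set had 4 differences. At any alignment, the longest unbroken stretch shared with another set was 10 to 17 bases in subgroup 1, with a median of 10. Over all members it reached 20 bases. The median G and C content was 48.0% in members, within a range of 24.0% to 68.0%, and 52.0% in the other probes.

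Within subgroup 1 the letters at positions 9 and 10 gave 3 classes, which were defined after the values had been seen and are therefore only described. They are called GA (32 probes), CG (6 probes) and CA (9 probes) after those letters. Against the GA class, the CG class carries the substitutions G9C and A10G and the CA class carries G9C alone. The 32 GA probes are the complete crossing of 2 bases at position 1 with 4 bases at position 3 and 4 bases at position 4, and their remaining letters are identical. The CG probes vary only at positions 3, 4 and 8, and the CA probes at positions 1 and 3 to 8.

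In most samples a larger share of the set than of the other probes was detected. Of its 94 probes, 7 were detected in all 25 samples, 75 in at least 1 and 19 in none. Among the other 4347 probes, 398 were detected in all samples, 2068 in at least 1 and 2279 in none. The share detected in all samples was thus smaller in the set, and the share detected in at least 1 was larger. In PO the share of the set detected was 36.2% at the lowest, 54.8% at the median and 76.6% at the highest, and in LO it was 14.9%, 53.7% and 54.3%. In A+PO these values were 39.4%, 55.3% and 77.7%, against 9.57%, 46.8% and 53.2% with linseed oil and aleurone.

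The ranges overlapped in all 4 groups, and the low ends of the linseed groups came from single samples. Among the Cy3 samples the share was 57.1% ± 14.3 (SD, n = 6) for PO and 47.2% ± 15.8 (SD, n = 6) for LO. Among the Cy5 samples it was 58.3% ± 13.8 (SD, n = 6) for A+PO and 38.8% ± 17.5 (SD, n = 7) for A+LO. LO 4 had 14.9%, while the other 5 LO samples lay between 52.1% and 54.3%. The partner of LO 4 had 9.57% and A+LO 11 had 18.1%, while the other 5 A+LO samples lay between 42.6% and 53.2%. At the upper end, PO 1 and PO 2 had 76.6% and 69.1%, and A+PO 1 and A+PO 2 on the same arrays had 77.7% and 70.2%.

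The difference of LO from PO was -9.93 percentage points, and it was -3.48 points without LO 4 and -2.04 points without PO 1 and PO 2. The difference of A+LO from A+PO was -19.6 points, and it was -9.61 points without A+LO 11 and the partner of LO 4. These samples were left out because of their low values. It was -11.8 points without A+PO 1 and A+PO 2. With the low and the high samples both left out, LO averaged 53.6% against 49.2% for PO, so the direction was reversed. In Cy5, A+LO then averaged 48.7% against 50.5% for A+PO. A laxer flag counted a probe as detected when its spots were positive and significant against the local background. Under it the A+LO difference shrank to -2.86 points, while the other probes had 64.8% in A+PO and 70.7% in A+LO. The Cy3 difference thus moved by over 1.5 times without LO 4 or without PO 1 and PO 2. The Cy5 difference was -14.7 points without the partner of LO 4 and -16.1 points without A+LO 11, and moved by over 1.5 times only when both were left out, when A+PO 1 and A+PO 2 were, or under the laxer flag.

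On the array of LO 4 signal depended on where a spot lay, in the set and in the other probes. Spots were put into an inner zone (under 0.5 of the way from the centre to the nearest edge), an outer zone (over 0.85) and a middle zone, with limits set after the values had been seen. In LO 4, 23 of 24 outer spots of the 32 GA probes described above were well above background, or 95.8%, against 2 of 25 inner spots, or 8.0%. In its partner the counts were 23 of 24 and 1 of 25. Among all other probes, 27.2% of outer and 17.6% of inner spots were well above background in LO 4. In its partner these shares were 34.5% and 12.1%. The 3 spots of b6983_1_18 in LO 4 read 200, 67883 and 537496, and the dimmest of them lay closest to the centre. In PO 5 and A+PO 5 the inner shares were 56.0% and 52.0% and the outer shares 91.7% and 87.5%. A+LO 11 was low in every zone, with 28.0% inside, 29.8% between and 41.7% outside. In the other 20 samples the inner share of these probes was at least 88.0% and the outer share at least 95.8%. Low detection in LO 4 and its partner thus coincided with dark spots toward the middle of that array, and in A+LO 11 it did not. Over all 94 members and only the outer spots, the share of spots above background differed by -6.50 points between LO and PO and by -15.6 points between A+LO and A+PO. Without PO 1 and PO 2 this outer share averaged 54.9% for PO, against 55.4% for all LO samples, so the Cy3 difference was not kept. Without A+PO 1 and A+PO 2 it averaged 52.3% for A+PO, against 45.3% for all A+LO samples.

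Other probes moved in the same samples, by fewer percentage points and from a lower level. Their detection averaged 24.4% ± 5.21 (SD, n = 6) for PO and 20.8% ± 2.75 (SD, n = 6) for LO. With aleurone it was 24.1% ± 5.90 (SD, n = 6) for A+PO and 18.4% ± 2.58 (SD, n = 7) for A+LO. The set's share was 1.95 to 2.66 times that of the other probes in PO and 2.19 to 2.73 times in A+PO. In the 5 LO samples other than LO 4 it was 2.38 to 2.54 times, and in the 5 A+LO samples without those low 2 it was 2.32 to 2.63 times. In LO 4 it was 0.974 times, in its partner 0.734 times and in A+LO 11 1.03 times. In those 3 samples the set had no excess over the rest of the array, and in the other 10 linseed samples the ratio lay within the control-oil range of 1.95 to 2.73. Values of 2 other sets are given as a description, since both were picked on their detection in these data. Set b6992 (25 probes) was picked as less detected under linseed oil. Its means were 55.3% for PO against 42.7% for LO and 53.3% for A+PO against 31.4% for A+LO. Set b6967 (21 probes), detected more often than b6983, had 81.7% against 77.0% and 82.5% against 76.2%. These differences between sets were not tested.

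The 2 samples of an array, which came from different diets, had similar sets of detected members. On the 6 control-oil arrays the Cy5 and Cy3 shares differed by 1.06 to 3.19 points, while PO and A+PO samples on different arrays differed by a median of 17.0 points and by up to 41.5. The same call was made for 86.2% to 98.9% of the members on one array, with a median of 95.2%, against a median of 79.8% between arrays. On the linseed arrays the 2 samples differed by 1.06 to 9.57 points and the Cy5 sample was the lower on all 6, while samples on different arrays differed by a median of 11.2 points. Without the array of LO 4 and A+LO 11 these medians were 3.19 points on an array and 4.26 between arrays. On the control-oil arrays, detection of the set thus varied more from array to array than between the diets hybridised together, and on the other linseed arrays the medians lay close. Whether the 2 dyes of an array were read independently was not tested.

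The CG class held the brightest members and was detected nearly everywhere. Of its 6 probes, 4 were detected in all 25 samples and the other 2 in 24. Probe b6983_1_35 had mean raw spot intensities of 159705, 269689 and 368824 (lowest, median and highest) in PO and 413698, 602423 and 873145 in A+PO. It had 385808, 557086 and 627361 in LO and 221048, 439825 and 847317 in A+LO. All 25 samples were far above the median of the other probes, which was at most 505 in any sample. Raw intensities of the 2 dyes are on different scales, so levels are compared here only within a dye.

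Probes b6983_1_40 and b6983_1_1 of the same class had similar PO medians, 269914 and 262291. In A+LO their lowest readings were 223273 and 9900. Probe b6983_1_40 differs from b6983_1_35 by the single substitution A3G, and the mean log2 gap between them over 25 samples was 0.00 with a range of -0.21 to 0.20. Probe b6983_1_44 was more uneven, with 4340, 184173 and 348932 in PO, 488, 469507 and 792420 in A+PO, 7800, 602579 and 641957 in LO and 365, 432000 and 581652 in A+LO. Every group held a sample of b6983_1_44 far below its median, although the probe was detected in all 25 samples. No spot of the set carried the saturation flag, and whether bright readings were compressed below it was not tested.

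One pair of probes in the bright and the dim class differed by a single base. Probe b6983_1_41 of the CA class differs from b6983_1_44 by G10A alone. It had 200, 1951 and 172268 in PO, 103, 530 and 499035 in A+PO, 172, 302 and 2356 in LO and 57.7, 68.0 and 82.1 in A+LO. In the 18 samples where both were detected the log2 gap had a mean of 6.76 and a median of 7.73, from -0.10 to 12.79, and b6983_1_44 was the brighter in 17 of them. In the other 7 samples only b6983_1_44 was detected, and the gap is a lower bound. By class medians, CG exceeded CA and GA in 25 of 25 samples, and GA exceeded CA in 23, although the CA median was often at background.

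The distance between CG and GA differed widely between samples. It is given for samples with over 0.5 of the GA probes detected, which leaves out LO 4, its partner and A+LO 11, where it is only a lower bound. In Cy3 it averaged 4.36 ± 3.45 log2 (SD, n = 6) for PO and 5.69 ± 1.79 (SD, n = 5) for LO. In Cy5 it averaged 6.54 ± 4.66 (SD, n = 6) for A+PO and 9.46 ± 1.29 (SD, n = 5) for A+LO. In PO 1 and A+PO 1 the GA median reached the CG median to within 0.06 and 0.02 log2. The GA class thus read about as bright as the CG class on the array of PO 1, and at least 7.64 log2 below it in every A+LO sample. In A+PO 1 the raw medians were 466720 for CG and 459043 for GA. Whether bright readings level off near that height was not tested.

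The 32 GA probes were mostly detected together. All 32 were detected in 18 of the 25 samples. The exceptions were 19 of 32 in PO 5, 24 in A+PO 5, 30 in LO 11, 29 in its partner, 4 in LO 4, 4 in the partner of LO 4 and 8 in A+LO 11. As a share of probe and sample combinations this was 93.2% for PO against 84.4% for LO, and 95.8% for A+PO against 75.4% for A+LO. Without LO 4 the LO share was 98.8%, and without its partner and A+LO 11 the A+LO share was 98.1%. Left out because they were low, these 3 samples held nearly all of the missing linseed detections of this class. The missing control-oil detections all lay in PO 5 and A+PO 5. With both sets of samples left out, 320 of 320 combinations were detected in 10 control-oil samples and 315 of 320, or 98.4%, in 10 linseed samples.

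Inside the GA class the letters at positions 1, 3 and 4 went with brightness. Over the 18 samples in which all 32 were detected, G3A, read from the brighter to the dimmer probe over 8 matched pairs, went with a mean drop of 2.51 ± 1.13 log2 (SD, n = 18) and held in 18 of 18 samples. G3C went with 1.77 ± 0.87 log2 and G3T with 1.64 ± 0.79 log2, both in 18 of 18 samples. At position 4, G4T went with 2.71 ± 1.5 log2 in 16 of 18 samples and C4T with 2.08 ± 1.33 in 16 of 18. At position 1, over 16 matched pairs, G1A went with 0.45 ± 0.24 log2 in 18 of 18. The brightest letter of position 3 was thus the same in every sample, and that of position 4 was not.

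The brightest GA probes were b6983_1_30 and b6983_1_34. Probe b6983_1_34 was detected in all 25 samples, with 94630, 207126 and 306357 in PO, 26318, 168689 and 461665 in A+PO, 3021, 441218 and 646700 in LO and 185, 30791 and 85580 in A+LO. Its LO median was above its PO median, and its A+LO median was below its A+PO median, with overlapping ranges in both dyes. The spots of this class were often flagged. Of its spot readings 79.4% carried an outlier flag, beside 59.8% in the 398 other probes detected in all samples and 42.5% over all 94 members. A flagged spot was used only where all spots of the probe were flagged, which happened for 752 of the set's 2350 probe and sample values.

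The CA class held 3 of the 6 members with the widest loss of detection under linseed oil, b6983_1_36, b6983_1_42 and b6983_1_38. Its 9 probes were detected in 81.5% of combinations for PO against 66.7% for LO, and in 68.5% for A+PO against 20.6% for A+LO. Without LO 4 the LO share was 77.8%, and without its partner and A+LO 11 the A+LO share was 28.9%. Without A+PO 1 and A+PO 2 the A+PO share was 52.8%. The A+LO share of the CA class thus remained the lower one under each of these omissions. In Cy3 the order was not kept. Without PO 1 and PO 2 the PO share was 72.2%, above all LO samples but below the 77.8% of LO without LO 4.

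Probe b6983_1_36 was detected in 10 of 12 control-oil samples and 4 of 13 linseed samples, the widest difference of the set, and b6983_1_38 in 8 and 3. Probe b6983_1_36 had 150, 1290 and 52946 in PO, 92.8, 406 and 50190 in A+PO, 128, 176 and 1441 in LO and 58.3, 68.2 and 82.3 in A+LO. It was detected in 0 of 7 A+LO samples, where its readings are bounds, and the median of the other probes was also lower there, at 58.9 to 69.0 against 72.7 to 167.0 in A+PO. Probe b6983_1_42 was detected in 6 of 12 control-oil samples and in 0 of 13 linseed samples, with medians of 263 in PO and 124 in LO. Its highest readings were 3528 in PO and 1527 in A+PO, and its linseed readings have only a bound, since none was well above background.

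Members of the other subgroups were mostly dim. In subgroup 2, 8 of 11 probes were detected in no sample, and the 12 detections of the other 3 all lay in PO 1, PO 2, A+PO 1 and A+PO 2. Its brightest member, b6983_2_14, had 61.8, 107 and 164836 in PO and 69.7, 124 and 151 in LO. A reading of 164836 in a group with a median of 107 shows how far single arrays stood from the rest. Its dimmest, b6983_2_7, was detected in 0 samples, as were b6983_3_12 and b6983_4_9, the dimmest of their subgroups.

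In subgroup 3, probes b6983_3_1 to b6983_3_4 carry the 4 letters of position 8 and are otherwise identical. Probe b6983_3_3 was detected in 20 samples, b6983_3_2 and b6983_3_4 in 11 each and b6983_3_1 in 2. Against b6983_3_3, the changes C8A, C8G and C8T thus went with fewer detections. The size of the drop is not given, since the dimmer probe was mostly at background. Probe b6983_3_3 had 111, 2090 and 12999 in PO, 88.0, 382 and 4984 in A+PO, 256, 1075 and 1934 in LO and 60.4, 97.9 and 127 in A+LO. It is 1 of only 3 members detected in a larger share of linseed than control-oil samples, with 11 of 13 against 9 of 12. The others were b6983_3_4, with 6 of 13 against 5 of 12, and b6983_1_18, with 11 of 13 against 10 of 12. Of the other 91 members, 65 were detected in a smaller share of linseed samples and 26 in an equal share, of which 19 were never detected and 7 always. Among the other 4347 probes 1370 were detected in a smaller share of linseed samples and 300 in a larger one. Of probes detected in some but not all samples, the share lower under linseed oil was 95.6% of 68 members and 82.0% of 1670 others, and the set was selected on these values.

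Subgroup 5 held a second bright pair. Probes b6983_5_4 and b6983_5_1 differ by A22G and were detected in 25 and 24 samples. Probe b6983_5_4 had 178442, 200567 and 311213 in PO, 115976, 361407 and 640735 in A+PO, 3646, 612317 and 646488 in LO and 193, 132599 and 266492 in A+LO. The other 6 probes of this subgroup included b6983_5_5 and b6983_5_8, detected in 5 and 2 samples, all of them on control-oil arrays. In subgroup 4, b6983_4_3 was detected in 12 samples and b6983_4_2 in 5, again all on control-oil arrays for the latter.

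Aleurone against none was tested with limma over the 1153 probes detected in at least 6 samples, of which 55 are members: all 47 of subgroup 1, 4 of subgroup 3, 1 of subgroup 4 and 3 of subgroup 5. A member reached this test only if it was bright enough, so the 55 do not stand for all 94. Values are log2 signals relative to the 75th percentile of the 405 probes detected in every sample. With control oil, the median of all 1153 probes shifted by -1.98 log2 between A+PO and PO, and that of the members by -2.03. Members passed in 30 of 55 cases, all lower in A+PO, with 0 higher, while 62.8% of all tested probes passed as lower and 0.0% as higher. The members' share lay near the background and is not a result about the set. Scaled by the median of the 1153 tested probes in place of that percentile, 9 members passed and most were higher, so the direction depends on the scaling.

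Against the common shift the named members moved little. Probe b6983_3_3 had the largest difference, -2.74 ± 0.68 log2 (SE; limma adjusted p = 0.00213; same direction on 6 of 6 arrays), or -0.76 relative to the median of all probes. Probe b6983_5_3 had -2.63 ± 0.73 (SE; limma adjusted p = 0.00393) and b6983_1_32 had -2.41 ± 0.91 (SE; limma adjusted p = 0.0242), or -0.65 and -0.43 relative to that median. In the CG class the 6 probes lay between -0.75 and 0.06 with 0 calls by limma (0 at an unadjusted p under 0.05). The values behind the called differences were spread widely. Probe b6983_5_3 had 544, 4046 and 13276 in PO and 145, 1653 and 10525 in A+PO, and b6983_1_32 had 1118, 7521 and 168686 in PO and 267, 2018 and 459373 in A+PO. Both groups overlapped for these probes, and the differences come from the 2 samples of each array. The count of members fell to 3 without PO 1 and lay between 8 and 18 without PO 2, PO 3, PO 4, PO 6, A+PO 3, A+PO 4, A+PO 5 or A+PO 6 in turn, and it was 46 without the array of LO 4, which feeds the shared spread.

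With linseed oil, 1 member of 55 passed as lower in A+LO and 0 as higher, beside 6.59% of all tested probes as lower and 3.21% as higher. The member was b6983_1_18, a GA probe. It had 105913, 292624 and 619939 in LO and 62.9, 3880 and 83406 in A+LO, in different dyes. The difference was -3.92 ± 0.96 log2 (SE; limma adjusted p = 0.0237; 6 of 6 arrays), or -3.42 relative to the median of all probes. The members' median was -1.05 and that of all probes -0.50. By class, GA had a median of -1.46, CA 0.53 and CG 0.96. Left-out samples moved this count: it was 41 without LO 4, 40 without its partner, 3 without the partner of LO 3, 2 without that of LO 9, and 0 without LO 6, LO 8, LO 11 or the partners of LO 6 and LO 11. It was 42 without both channels of the array of LO 4.

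The interaction asked whether the aleurone difference was the same with both oils. What dye or slide adds equally to all samples drops out of it. Of 55 members 7 passed, all with a higher value, beside 24.0% of all tested probes as higher and 0.0% as lower. They were 4 CA probes and 3 of subgroup 3, and no GA or CG probe passed. The members' median was 0.90 and that of all probes 1.35, a relative median of -0.45 that turned to 0.09 with quantile scaling within each dye and was -0.07 without A+PO 1. Probe b6983_1_42 had 3.59 ± 0.79 log2 (SE; limma adjusted p = 0.00420), b6983_1_38 had 3.11 ± 0.89 (SE; limma adjusted p = 0.0117) and b6983_3_17 had 2.93 ± 0.85 (SE; limma adjusted p = 0.0130). Relative to the median of all probes these were 2.24, 1.76 and 1.58.

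The 3 probes named here were near background under linseed oil. Probe b6983_1_42 was detected in 0 of 13 linseed samples, b6983_3_17 in 1 and b6983_1_38 in 3. Their levels there are thus mostly bounds, and the fitted differences are no measure of a fold. With 6, 6 and 8 control-oil detections, they met the filter of 6 samples through the oil with more detections. Their calls are therefore only a description. Of the other 4 called members, b6983_1_36 was detected in 4 of 13 linseed samples, b6983_3_2 in 5, b6983_3_4 in 6 and b6983_1_47 in 7. With 10 and 6 control-oil detections, b6983_1_36 and b6983_3_2 reached 6 samples in that oil alone. Their calls are likewise only a description. Probe b6983_1_38 had 126, 1705 and 19675 in PO and 105, 545 and 13195 in A+PO, against 120, 157 and 356 in LO and 61.9, 71.0 and 114 in A+LO. Probe b6983_3_17 had 125, 230 and 11478 in PO and 146, 186 and 5111 in A+PO, against 82.7, 140 and 201 in LO and 55.8, 65.0 and 112 in A+LO. High readings of both thus occurred on control-oil arrays and not on linseed arrays. With quantile scaling within each dye, 0 members passed. The count was 1 without PO 1, 3 without A+PO 4, A+PO 5, A+PO 6 or the partner of LO 11, and 4 without PO 2, PO 3, PO 4, PO 6, A+PO 3, LO 11 or the partner of LO 3.

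Between the oils, where the set was selected, fitted signals are given without a test. The median member differed by -2.49 log2 between LO and PO, with the median of all 1153 probes at -1.44, and by -1.53 between A+LO and A+PO, with all probes at 0.16. Relative to all probes these are -1.05 and -1.69 log2. By class, LO minus PO was -0.07 at the median in CG, -2.60 in GA and -3.62 in CA, and A+LO minus A+PO was 0.86 in CG, -1.95 in GA and -0.87 in CA. The median of the brightest class was thus near 0 in Cy3, and the medians of GA and CA were below 0 in both dyes. The CA class was detected in only 13 of 63 A+LO combinations, so its A+LO levels are mostly bounds. The GA values include LO 4, its partner and A+LO 11, with 4, 4 and 8 of 32 GA probes detected. In the tested members of subgroups 3, 4 and 5, LO minus PO was -2.18, -1.62 and -1.47. There A+LO minus A+PO was 0.21, 0.71 and -0.77. These comparisons use the same samples as the aleurone ones.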

How the data were processed

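Faecal DNA (10 ng) was amplified over 35 cycles, and 1 µg of product was labelled and 250 ng of it hybridised, per the labels' protocols. The authors deposited linear spot intensities, and Agilent Feature Extraction 10.5.1.1 wrote them, per the file headers. The 13 arrays give 25 samples. Each dye was treated as 1 channel. Mean spot intensities were background-corrected by normexp with an offset of 50, put on the log2 scale, averaged over spots without outlier flags and scaled by the 75th percentile. The normexp fit left out 3 to 6 spots in each of 4 linseed channels, those over 10 median absolute deviations below the median. This was chosen after seeing the data, because these spots had lifted dim probes there. Fitted on all spots, members called were 35, 1 and 9 in place of 30, 1 and 7. Tests were run in R 4.3.3 by limma 3.58.1, with 1 mean for each diet group, the array as a random block (correlation 0.725) and Benjamini-Hochberg adjustment over 1153 probes at 0.05, and the script was tested on simulated data. Samples of an array deviated together from their group means (r = 0.723 to 0.940 over the tested probes). Raw intensities in the text are means of usable spots. Python 3.11.15 was used for descriptions. Arrays limit the precision by their number. The members, classes and lists were chosen with earlier results of these data known. Named probes are the 6 brightest of those detected everywhere, up to 3 per direction past each test, up to 6 lower and 3 higher in detection between oils, and the brightest and dimmest of each subgroup. Others named as single-base partners were chosen after their values were seen.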

Additional observations from a re-analysis of the deposited data

Results flagged for a closer look

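In 11 of 40 sets of values (10 measures in 4 diet groups), 1 sample lay far from the others of its group. Chance alone flags about 1 in 20 groups, but this rate cannot be applied to counts tied in all other samples. The GA class in PO was such a case, with 32 of 32 in every sample but PO 5. LO 4 was flagged for the share of b6983 detected (14.9%), the share of other probes detected (15.3%), the median percentile of the members' signals within the sample (52.8), and for its detected probes in the GA class (4 of 32), the CA class (1 of 9) and subgroup 5 (2 of 8). Its partner, the A+LO sample of that array, was flagged for other probes (13.0%), the CG class (4 of 6) and subgroup 5 (1 of 8). PO 5 and A+PO 5, which share an array, were flagged for the GA class, with 19 and 24 of 32. These measures overlap, and the flagged samples lie on only 2 arrays. In LO 4 and its partner the dim spots lay toward the middle of the array.

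The largest members past the threshold in limma's interaction were b6983_1_42 (3.59 log2), b6983_1_38 (3.11 log2) and b6983_3_17 (2.93 log2). They were detected in 0, 3 and 1 of 13 linseed samples, where their levels are mostly bounds. Each met the filter of 6 samples through its control-oil detections. These values therefore do not show that the aleurone difference differed between the oils.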

How the results depend on the processing

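Counts of members called depended on the scaling, and the cause was not tested. With control oil, 30 became 4 (median of all probes) and 9 (median of the tested probes), both mostly higher, 0 (quantile over all samples, loess within arrays, or no array block), 48 (only the groups compared) and 46 (without the array of LO 4, with or without A+LO 11), and 3 to 40 with single samples left out. With linseed oil, 1 became 21 (background-subtracted signal), 18 (processed signal), 45 (median of all probes), 2 (quantile over all samples), 47 (quantile within each dye), 8 (loess), 3 (no background correction), 42 (without the array of LO 4), 40 (without that array and A+LO 11) and 0 (no array block, only the groups compared, or without the array of PO 1). It became 20 (median of the tested probes) and 44 (no filter), both mostly higher, and 0 to 41 with single samples left out. The interaction's 7 became 0 (background-subtracted or processed signal, either quantile scaling, loess, or no array block), 25 mostly lower (median of all probes), 3 (median of the tested probes), 45 (no filter), 2 (no background correction) and 1 to 9 with single samples left out. With the array as a fixed replicate block in place of a random one the counts were 43, 1 and 8. This choice moved none by over 1.5 times, but without any array block all were 0.

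Reversed for single probes: with control oil, b6983_3_3 (0.10), b6983_5_3 (0.21) and b6983_1_32 (0.44) under the median of the tested probes, and b6983_5_3 under quantile (0.39) and loess (0.01); in the interaction, b6983_1_38 (-0.05) and b6983_3_17 (-0.34) under quantile over all samples, and b6983_3_17 under the median of all probes (-0.17) and loess (-0.34). Their adjusted p ran from 0.519 to 0.993. With positive and significant spots, the detection share differed by -2.86 points (A+LO minus A+PO) and 13.98 (A+LO minus LO, main -8.41). The relative medians of the members stayed within 1 SD of samples in every alternative, but some changed sign or size: aleurone with linseed oil (-0.55) ran from -0.96 to 0.09, the interaction (-0.45) from -0.80 to 0.09, aleurone with control oil (-0.05) from -0.39 to 0.15, and LO minus PO (-1.05) reached -0.50 without the array of LO 4 and A+LO 11. Loess left out A+LO 11. Signal over background limits the CA class and subgroups 2 to 4, where most linseed readings are bounds.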
